A study of Mus musculus with 24 samples.

Results

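The mitochondrially encoded RNAs are the 37 of 55341 genes in the count table whose name starts with mt-. They comprise 13 messenger RNAs, 2 ribosomal RNAs and 22 transfer RNAs, all annotated on the mitochondrial chromosome. Of the 37, 25 had enough counts to be tested, namely the 13 messenger RNAs, both ribosomal RNAs and 10 transfer RNAs. The other 12 transfer RNAs (mt-Tf, mt-Tv, mt-Tc, mt-Ty, mt-Ts1, mt-Td, mt-Tk, mt-Tg, mt-Tr, mt-Th, mt-Ts2 and mt-Tl2) had at most 7 counts in any library and are only counted here.

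Mitochondrial DNA is a small circle that is transcribed from both strands into long precursor RNAs. Transfer RNAs lie between most of the other genes, and RNase P and the nuclease ELAC2 cut at their ends, which also frees the messenger and ribosomal RNAs. The messenger RNAs encode core subunits of respiratory complexes I, III and IV and of ATP synthase, and the ribosomal and transfer RNAs serve their translation inside the organelle.

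The libraries came from 3134 cells, a mouse line labelled as mammary adenocarcinoma. In all groups the cells carried an IPTG-inducible short hairpin RNA against Nipbl, the gene of the cohesin-loading factor NIPBL. Onto it a construct was integrated, either an empty vector (EV), wild-type NIPBL (WT) or a NIPBL mutant named C1, C2 or C1-C2, whose changes the labels do not give. Cells grew for 3 days in charcoal-stripped serum, with 1 mM IPTG where named, and received 100 nM dexamethasone, a synthetic glucocorticoid, or ethanol for 2 h. The 12 groups of 2 libraries were IPTG.C1C2, IPTG.C2, IPTG.C1, IPTG.WT, IPTG.EV and noIPTG.EV, each with dexamethasone (Dex) and each with ethanol (EtOH). No group received IPTG without the hairpin, so IPTG and the hairpin cannot be told apart. The labels do not say whether a line is a clone or a pool.

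Libraries of Dex and EtOH cells carry numbers from different ranges, so dexamethasone and this block of libraries cannot be told apart in any Dex against EtOH comparison. Depth also followed the block, with 45038685 to 72857880 counts in the 12 Dex libraries and 32532858 to 42711188 in the 12 EtOH libraries. Replicate 2 of IPTG.C1C2.EtOH has an ethanol title but a dexamethasone treatment label and was grouped by its title. Without it, the members called for Dex in IPTG.C1C2 were 9 instead of 10. Nipbl had 54.4 and 56.5 CPM (counts scaled to the library total) in IPTG.EV.Dex, against 151 and 154 CPM in noIPTG.EV.Dex. With ethanol it had 65.0 and 62.6 CPM in IPTG.EV, against 186 and 177 CPM in noIPTG.EV, so part of the Nipbl RNA was left. In the groups with an add-back construct it had 48.0 to 73.3 CPM. In IPTG.WT it had 66.19 and 55.05 CPM with Dex and 70.39 and 62.64 CPM with EtOH, near the values of IPTG.EV. The Nipbl counts thus do not show whether the constructs were expressed. Of 7 epithelial markers, only the keratin Krt14 exceeded 1 CPM in all libraries and Epcam was at 0. Of 6 fibroblast markers, 3 did so, namely Vim (3330 to 4460 CPM), Col1a2 (1390 to 1840 CPM) and Pdgfrb (107 to 236 CPM). The other fibroblast markers were low, with Col1a1 at 0.4 to 2.05 CPM and Thy1 and Dcn near 0. The epithelial markers of the labelled adenocarcinoma origin were thus largely near 0, and the fibroblast list was mixed. The design text calls the replicates biological without saying what set them apart, so the p-values measure the spread between these libraries.

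Of the 3 classes, the transfer RNAs had the largest difference in summed share between treatments. In all 6 states, that is for each construct and IPTG condition, 5 of the 10 tested transfer RNAs fell in Dex against EtOH. Of all tested genes, 9.22% fell in all 6. mt-Tl1 was 16.6- to 37.3-fold lower. The large ribosomal RNA mt-Rnr2 rose in 5 of 6 states, where 14.8 to 19.8% of all genes rose per state. Per state 0 to 2 of the 13 messenger RNAs passed in the fit over all 24 libraries, against 28.5 to 38% of all genes. In that fit 11 of the 13 passed in none. In the comparisons of knockdown, add-back and mutants, 0 or 1 of the 25 members passed, and where 1 did it was the transfer RNA mt-Tq. Of all genes 1.16 to 16.9% passed in these comparisons. For add-back and IPTG.C1C2 the counts are thus near the share of all genes, and the intervals of most members were wide.

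As classes, the 13 messenger RNAs took 0.876 to 1.44% of all counts of a library with Dex (median 1.01%), against 1.06 to 1.57% with EtOH (median 1.37%). The 2 ribosomal RNAs took 0.108 to 0.292% with Dex (median 0.187%), against 0.102 to 0.194% with EtOH (median 0.132%). The depletion step of the library kit removes ribosomal RNA, so the ribosomal share is what the depletion left. The 22 transfer RNAs took 0.00143 to 0.00255% with Dex (median 0.00194%), against 0.00365 to 0.00602% with EtOH (median 0.0052%). Messenger and ribosomal shares thus overlapped between treatments, and transfer shares did not. On the log2 scale the mean difference over the 6 states was -0.36 for messenger, 0.40 for ribosomal and -1.34 for transfer RNAs, given without a test. The ribosomal difference was 0.36 to 0.71 in 5 states but -0.23 in IPTG.C1C2. In bulk samples, fewer mitochondria or cells of a kind and less RNA per cell cannot be told apart.

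**Figure D1:**
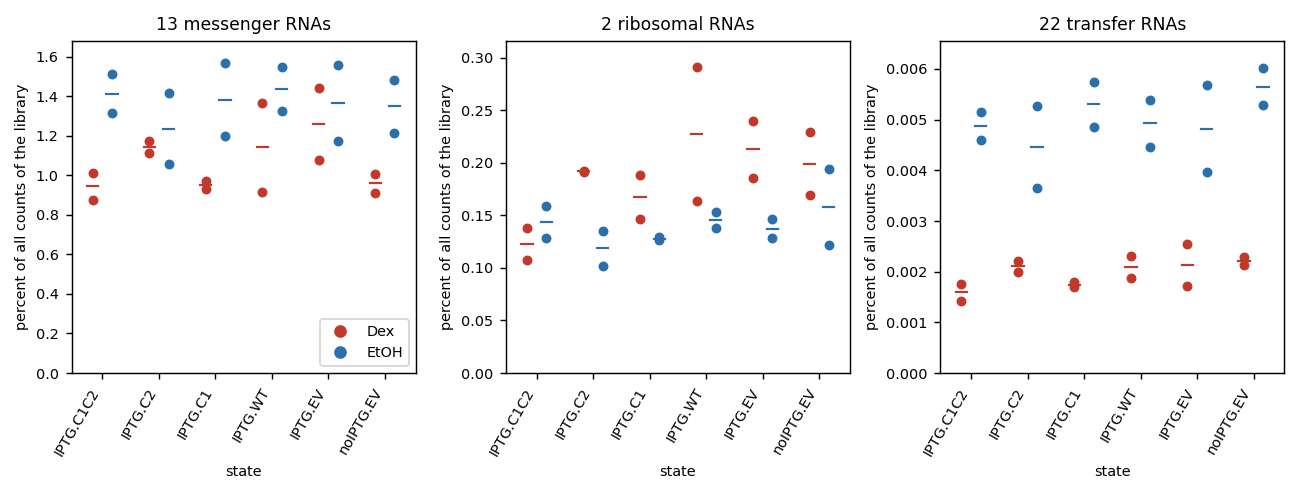
Percent of all counts of a library taken by the messenger, ribosomal and transfer RNAs (y axis) in each state (x axis), with 1 point per library, Dex left and EtOH right, and a bar at the mean of 2 libraries. The transfer RNA share lies between 0.00143 and 0.00255% in Dex libraries and between 0.00365 and 0.00602% in EtOH libraries, without overlap, while the other classes overlap.

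The messenger RNAs encode 7 subunits of complex I (mt-Nd1 to mt-Nd6 and mt-Nd4l), cytochrome b of complex III (mt-Cytb), 3 subunits of cytochrome c oxidase (mt-Co1 to mt-Co3) and 2 of ATP synthase (mt-Atp6 and mt-Atp8). Levels between genes are given as CPM per kilobase, as the median over the 24 libraries. By this level mt-Co1 was highest at 3861, followed by mt-Nd1 at 2462, mt-Cytb at 1152, mt-Nd2 at 695, mt-Nd4 at 455, mt-Nd5 at 406 and mt-Nd6 at 329. The ranges over libraries of mt-Nd4 (338 to 602) and mt-Nd5 (284 to 544) overlapped each other and that of mt-Nd6 (202 to 545), so the order of these 3 is within their spread. Part of mt-Nd4 and of mt-Co1 has a near-identical nuclear copy, described next, which can affect their counts. Over only the bases without such a copy, the same counts would give 1248 for mt-Nd4, above mt-Cytb, and 5617 for mt-Co1, so the place of mt-Nd4 in this order is not fixed. mt-Co1 alone held 49.55% of all messenger counts and mt-Nd1 20.03%.

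The other 6 messenger RNAs were far lower: mt-Co2 had a median of 14.0 CPM per kilobase, mt-Co3 11.4, mt-Atp6 8.92, mt-Nd3 4.26, mt-Atp8 3.03 and mt-Nd4l 2.89. Together they held 0.168 to 0.488% of the messenger counts of a library. Apart from transfer RNAs, these 6 are all the genes between mt-Co1 and mt-Nd4 on the mitochondrial chromosome. A block of 4663 bases on chromosome 1 (24611535 to 24616197, minus strand, mm10) carries annotated unprocessed pseudogenes of the same stretch. Whole-length copies of mt-Co2 (Gm28661), mt-Atp6 (Gm10925), mt-Co3 (Gm28437) and mt-Nd4l (Gm10222) were 100% identical in GENCODE vM21 transcripts, and that of mt-Nd3 (Gm28438) was 99.7% identical. A partial copy covered 63.6% of mt-Nd4 (Gm28439, 100% identical) and another 31.3% of mt-Co1 (Gm29216, 99.8% identical). mt-Atp8 overlaps mt-Atp6 by 43 bases, and no copy of it is annotated as such. It lies between mt-Co2 and mt-Atp6, which are 233 bases apart on the mitochondrial chromosome, as are their copies on chromosome 1.

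To show how little separates the pairs, the first bases of mt-Nd3 and of its copy are printed 5′ to 3′ from GENCODE vM21, with the only mismatch over 345 aligned bases, T3C (counted from 1 at the gene's first base), in capitals.
mt-Nd3: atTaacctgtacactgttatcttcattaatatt
Gm28438: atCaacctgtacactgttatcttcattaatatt

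A read from such a stretch aligns to both places, and how reads with several alignments were counted is not stated in the sources used here. The counts of the 6 low genes are therefore uncertain, as are those of their copies and those of the copied stretches of mt-Nd4 and mt-Co1. Over the 5 whole-length pairs, the mitochondrial genes held 16.2 to 69.2% of the pair's summed counts. That share was 48.4 and 50.4% in IPTG.WT.EtOH, against 31.1 and 30% in IPTG.EV.EtOH. It stood at 69.2% in replicate 1 of IPTG.C2.Dex but 34.5% in replicate 2. The lowest shares, 16.2% in replicate 2 of noIPTG.EV.Dex and 21.3% in replicate 2 of IPTG.C1C2.Dex, came with 4830 and 4142 counts of Gm28661. The share thus differed widely between replicates in some groups, such as IPTG.C2.Dex, and little in others, such as IPTG.WT.EtOH and IPTG.EV.EtOH. Its part in the values of these genes was not tested.

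**Figure D2:**
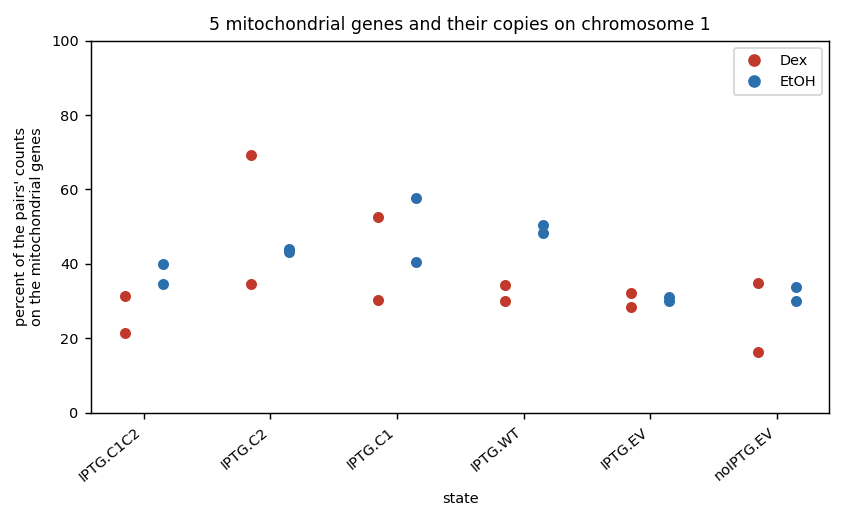
Share (percent, y axis) of the summed counts of 5 mitochondrial genes and their copies on chromosome 1 that was assigned to the mitochondrial genes, with 1 point per library in each state (x axis), Dex left and EtOH right. Shares run from 16.2% in a noIPTG.EV.Dex library to 69.2% in an IPTG.C2.Dex library, and the replicates of IPTG.C2.Dex stand at 69.2 and 34.5%.

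Dexamethasone was compared with ethanol in each state. In noIPTG.EV 8 of the 25 tested members passed an adjusted p below 0.05 in edgeR's quasi-likelihood test, against 38% of all 16934 genes tested. The count was 8 in IPTG.EV (background 32.5%), 9 in IPTG.WT (28.5%), 11 in IPTG.C1 (32.2%), 6 in IPTG.C2 (32.5%) and 10 in IPTG.C1C2 (32.3%). Lower were 7 in noIPTG.EV (18.2% of all genes), 7 in IPTG.EV (15.4%), 8 in IPTG.WT (13.7%), 10 in IPTG.C1 (15.2%), 5 in IPTG.C2 (15.7%) and 10 in IPTG.C1C2 (15.8%). Higher was 1, mt-Rnr2, in each state but IPTG.C1C2 with 0, where 19.8, 17.1, 14.8, 17, 16.8 and 16.4% of all genes were higher in the same order. The share of members called in either direction was thus near that of all genes in most states. By class, 5 to 8 of the 10 transfer RNAs and 0 to 2 of the 13 messenger RNAs were lower in a state. mt-Tn, which met the low-count filter only through its EtOH libraries, is in these counts in each state but IPTG.C2. The median log2 change of the 25 members was -0.52 in noIPTG.EV and between -0.54 and -0.08 in the other 5, while the median of all genes was between 0.00 and 0.02 in the 6 states.

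**Figure D3:**
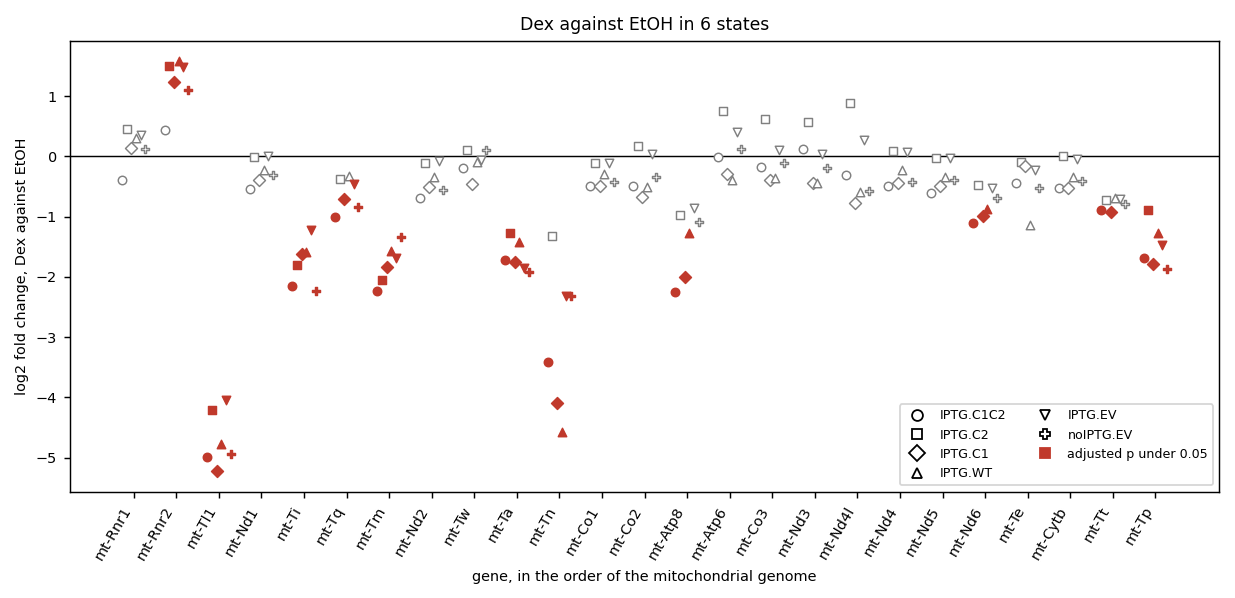
Log2 fold change of Dex against EtOH (y axis) for the 25 tested members in the order of the mitochondrial genome (x axis), with 1 symbol per state, filled red where edgeR's adjusted p is below 0.05. mt-Tl1 lies between -5.22 and -4.05 in the 6 states, mt-Rnr2 between 0.43 and 1.58, and open symbols near 0 mark most messenger RNAs.

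Among messenger RNAs, only mt-Nd6 and mt-Atp8 passed in any state in the fit over all 24 libraries. mt-Nd6, a complex I subunit and the only messenger RNA on the minus strand, had 105 and 115 CPM in IPTG.C1C2.Dex, against 243 and 229.6 CPM in IPTG.C1C2.EtOH. It had 125 and 126 CPM in IPTG.C1.Dex, against 283 and 214 CPM in IPTG.C1.EtOH, and 128 and 148 CPM in IPTG.WT.Dex, against 283 and 221 CPM in IPTG.WT.EtOH. In these 3 states, and in noIPTG.EV and IPTG.EV, the Dex libraries lay below the EtOH libraries, while in IPTG.C2 they overlapped. It fell by 1.10 ± 0.26 on the log2 scale (standard error, adjusted p = 0.00578, edgeR) in IPTG.C1C2, by 0.98 ± 0.26 (adjusted p = 0.0115) in IPTG.C1 and by 0.87 ± 0.26 (adjusted p = 0.0249) in IPTG.WT. In noIPTG.EV it had 184 and 129.7 CPM with Dex against 245 and 262 CPM with EtOH, and its log2 change of -0.69 did not pass (adjusted p = 0.0519, edgeR). Neither did the changes in IPTG.EV (-0.53) and IPTG.C2 (-0.48). Of all messenger counts, mt-Nd6 held 1.08 to 1.85% with Dex (median 1.27%), against 1.48 to 2.03% with EtOH (median 1.83%). Each of the 3 calls was lost when 1 library was left out, with adjusted p up to 0.158 in IPTG.WT, 0.106 in IPTG.C1 and 0.0528 in IPTG.C1C2. With the length and GC trend removed, an alternative added after the data had been seen, the calls in IPTG.WT (0.0868) and IPTG.C1 (0.227) were lost. That trend was fitted on 12340 genes, with the members that had enough counts among them. Its removal can thus take out part of a member's own change, and how much was not tested. mt-Nd6 overlaps mt-Nd5 on the opposite strand by 14 bases, and the strand setting of the counting is not stated.

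mt-Atp8, a short ATP synthase subunit, had 9 to 55 counts in the Dex libraries against 20 to 75 in the EtOH libraries. It fell by 2.25 ± 0.48 (log2, adjusted p = 0.000775, edgeR) in IPTG.C1C2, by 2.00 ± 0.44 (adjusted p = 0.00112) in IPTG.C1 and by 1.28 ± 0.41 (adjusted p = 0.0213) in IPTG.WT. In noIPTG.EV (log2 -1.09), IPTG.C2 (-0.98) and IPTG.EV (-0.85) it was also lower but did not pass. In IPTG.WT.Dex its replicates had 15 and 55 counts, against 75 and 50 in IPTG.WT.EtOH, and the call was lost without replicate 1 of IPTG.WT.Dex (adjusted p = 0.281) or replicate 1 of IPTG.WT.EtOH (0.185), with only the libraries compared (0.16) and with the length and GC trend removed (0.097).

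The other 11 messenger RNAs passed in no state in the fit over all 24 libraries. With only the libraries compared, the members called, of all classes, rose to 19 in IPTG.C1 and 13 in noIPTG.EV. Which members these were is not given here, so other messenger RNAs may be among them. Among the 7 with high levels, mt-Co1, the catalytic subunit of cytochrome c oxidase, had 4520 to 7160 CPM (median 5180) with Dex, against 5380 to 7590 CPM (median 6640) with EtOH. Its log2 changes over the 6 states were -0.49 to -0.10. mt-Nd1, which adjoins mt-Tl1, had 1820 to 2860 CPM (median 2120) with Dex, against 2040 to 3050 CPM (median 2670) with EtOH, with log2 changes of -0.54 to 0.01. The Dex and EtOH ranges of both overlapped. Log2 changes ran from -0.70 to -0.08 for mt-Nd2, -0.50 to 0.09 for mt-Nd4, -0.61 to -0.03 for mt-Nd5 and -0.53 to 0.01 for mt-Cytb. Of the low genes with chromosome 1 copies, mt-Co2 (-0.67 to 0.18), mt-Atp6 (-0.38 to 0.76), mt-Co3 (-0.39 to 0.62), mt-Nd3 (-0.45 to 0.57) and mt-Nd4l (-0.78 to 0.89) had their highest values in IPTG.C2. These maxima rest on replicate 1 of IPTG.C2.Dex, the library with the 69.2% share: mt-Co3 had 18.98 CPM there and 9.13 CPM in replicate 2, against 8.71 and 9.71 CPM in IPTG.C2.EtOH. Without that library the log2 changes in IPTG.C2 were -0.22 for mt-Co2, 0.05 for mt-Atp6, -0.01 for mt-Co3, -0.12 for mt-Nd3 and 0.25 for mt-Nd4l. Without replicate 2 instead, they were 0.48 to 1.31, and all but mt-Co2 then passed (adjusted p at most 0.0198, edgeR).

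The 2 ribosomal RNAs adjoin each other except for the transfer RNA mt-Tv. mt-Rnr1, the RNA of the small mitochondrial ribosomal subunit, had 759 to 1800 CPM (median 1180) with Dex, against 816 to 1470 CPM (median 1030) with EtOH. Its ranges overlapped, its log2 changes were -0.40 to 0.46, and it passed in none of the 6 states (lowest adjusted p = 0.256, edgeR).

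mt-Rnr2, the RNA of the large subunit, had 643 and 1116 CPM in IPTG.WT.Dex, against 301 and 288 CPM in IPTG.WT.EtOH. It had 637 and 704 CPM in IPTG.C2.Dex, against 197 and 277 CPM in IPTG.C2.EtOH, and 726 and 871 CPM in IPTG.EV.Dex, against 279 and 294 CPM in IPTG.EV.EtOH. It had 729.7 and 519 CPM in IPTG.C1.Dex, against 270.3 and 260.5 CPM in IPTG.C1.EtOH, and 980.3 and 641 CPM in noIPTG.EV.Dex, against 270.2 and 487 CPM in noIPTG.EV.EtOH. In these 5 states both Dex libraries lay above both EtOH libraries. The rise was 2.99-fold in IPTG.WT (log2 1.58 ± 0.345, adjusted p = 0.00391, edgeR), 2.83-fold in IPTG.C2 (1.499 ± 0.345, adjusted p = 0.0047) and 2.79-fold in IPTG.EV (1.48 ± 0.344, adjusted p = 0.0051). It was 2.35-fold in IPTG.C1 (1.235 ± 0.342, adjusted p = 0.0148) and 2.14-fold in noIPTG.EV (1.10 ± 0.340, adjusted p = 0.0221). IPTG.C1C2 had 488 and 325 CPM with Dex, against 264 and 338 CPM with EtOH, which overlap, and its log2 change of 0.43 did not pass (adjusted p = 0.382). The call held whichever library was left out in IPTG.WT and IPTG.EV. In noIPTG.EV it was lost without replicate 1 of noIPTG.EV.EtOH (log2 0.73, adjusted p = 0.193) or of noIPTG.EV.Dex (0.76, adjusted p = 0.18), and with only the libraries compared, where the change itself stayed at 1.085 (adjusted p = 0.257). In IPTG.C1 it was lost without either IPTG.C1.EtOH library, at a change of 1.256 and 1.199, or without replicate 1 of IPTG.C1.Dex (0.97), with adjusted p of 0.0797 to 0.107. In IPTG.C2 it was lost without replicate 1 of IPTG.C2.EtOH (1.27, adjusted p = 0.0567).

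Within a library, the ratio of both ribosomal RNAs does not depend on any scaling. There were 42.8 to 64.9 counts of mt-Rnr2 per 100 counts of mt-Rnr1 in Dex libraries (median 57.4), against 24.2 to 33.1 in EtOH libraries (median 27.0). The 12 Dex libraries thus lay above the 12 EtOH libraries, IPTG.C1C2 included, where the ratio was 53.4 and 42.8 with Dex against 26.5 and 27.9 with EtOH. Among single tested genes, 9.47% had all Dex libraries above all EtOH libraries and 8.62% had them all below. How many ratios of other gene pairs separate in this way was not counted. Depletion of ribosomal RNA acts during library preparation, and the libraries of the treatments are in separate blocks. Reads linked to cytosolic ribosomal RNA moved the same way: Gm42418 rose in 5 of 6 states, with 18200 to 31400 CPM with Dex against 16200 to 19600 CPM with EtOH, and Gm26917 in 2. Their part in the rise of mt-Rnr2 was not tested.

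**Figure D4:**
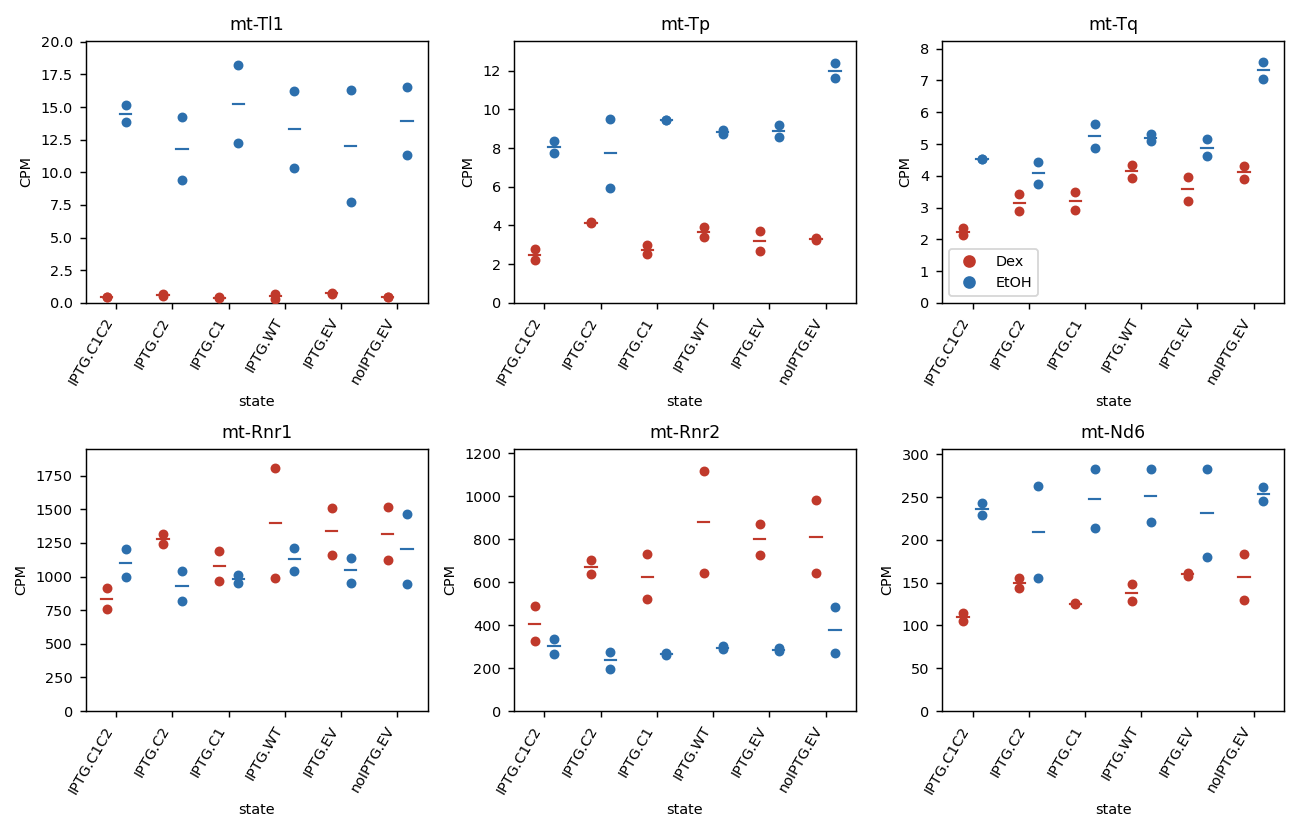
CPM (y axis) of mt-Tl1, mt-Tp, mt-Tq, mt-Rnr1, mt-Rnr2 and mt-Nd6 in each state (x axis), with 1 point per library, Dex left and EtOH right, and a bar at the mean of 2 libraries. mt-Tl1 stays at 0.311 to 0.766 CPM with Dex against 7.71 to 18.2 CPM with EtOH, whereas mt-Rnr1 overlaps between treatments.

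The transfer RNA sequences below are those that fell in all 6 states, then mt-Tq, which passed in other comparisons, and mt-Tw, which had the most counts over all libraries and passed in none. They come from GENCODE vM21 (GRCm38, the sequence of mm10), 5′ to 3′ on the strand of the gene, written as DNA, with the anticodon in capitals.
mt-Tl1 (leucine, UUR codons; chrM:2676-2750, plus strand): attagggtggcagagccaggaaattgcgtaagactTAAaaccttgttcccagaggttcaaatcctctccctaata
mt-Ti (isoleucine; chrM:3706-3774, plus strand): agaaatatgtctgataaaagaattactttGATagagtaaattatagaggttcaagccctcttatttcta
mt-Tm (methionine; chrM:3845-3913, plus strand): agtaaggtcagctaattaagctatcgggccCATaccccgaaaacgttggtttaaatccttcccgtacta
mt-Ta (alanine; chrM:5018-5086, minus strand): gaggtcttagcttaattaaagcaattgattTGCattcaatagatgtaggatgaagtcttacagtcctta
mt-Tp (proline; chrM:15356-15422, minus strand): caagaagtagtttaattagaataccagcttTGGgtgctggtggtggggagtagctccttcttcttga
mt-Tq (glutamine; chrM:3772-3842, minus strand): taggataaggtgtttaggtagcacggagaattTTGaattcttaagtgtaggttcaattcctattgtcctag
mt-Tw (tryptophan; chrM:4950-5016, plus strand): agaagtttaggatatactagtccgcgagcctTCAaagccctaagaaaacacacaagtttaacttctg

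The 5 that fell in all 6 states come from both strands and range in GC content from 27.5% (mt-Ti) to 44.9% (mt-Tm), while mt-Tw has 40.3%. mt-Tl1 lies with no base between it and mt-Rnr2 upstream or mt-Nd1 downstream. mt-Tq overlaps mt-Ti by 3 bases on the opposite strand. None of these 7 had a near-identical copy (99% or more) among annotated transcripts, and the closest match of mt-Tl1 was 93.5% identical over 62 bases of a Cep295 transcript with a retained intron. A mature transfer RNA is short, structured and modified, and this kind of library is not made to capture it, so a count here can be a mature or a precursor molecule.

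mt-Tl1, the transfer RNA for leucine UUR codons, had 19 and 26 counts in IPTG.C1C2.Dex, against 543 and 659 in IPTG.C1C2.EtOH. It had 45 and 29 counts in IPTG.C2.Dex, against 384 and 500 in IPTG.C2.EtOH, and 31 and 20 in IPTG.C1.Dex, against 691 and 474 in IPTG.C1.EtOH. It had 18 and 35 counts in IPTG.WT.Dex, against 656 and 402 in IPTG.WT.EtOH. In IPTG.EV.Dex it had 34 and 38 counts, against 644 and 257 in IPTG.EV.EtOH, and in noIPTG.EV.Dex 21 and 24, against 484 and 568 in noIPTG.EV.EtOH. The Dex libraries, though deeper, were all far below the EtOH libraries. Scaled for depth, mt-Tl1 had 0.311 to 0.766 CPM with Dex (median 0.472) against 7.71 to 18.2 CPM with EtOH (median 14.0).

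The fall of mt-Tl1 was 37.3-fold in IPTG.C1 (log2 -5.22 ± 0.478, adjusted p = 1.84e-06, edgeR), 31.7-fold in IPTG.C1C2, 30.7-fold in noIPTG.EV and 27.4-fold in IPTG.WT. It was 18.5-fold in IPTG.C2 and 16.6-fold in IPTG.EV (log2 -4.05 ± 0.460, adjusted p = 1.38e-05, edgeR). Each of these calls held in every alternative run. Of the genes that flank mt-Tl1 without a gap, mt-Rnr2 rose in 5 states and mt-Nd1 passed in none. Per 10000 counts of mt-Nd1 there were 1.69 to 3.01 counts of mt-Tl1 with Dex, against 36.5 to 63.1 with EtOH. Of all transfer RNA counts, mt-Tl1 held 1.66 to 3.91% with Dex, against 19.9 to 32.7% with EtOH. Without mt-Tl1, the other 21 transfer RNAs still had 1.54 to 2.28 counts per 1000 messenger counts with Dex (median 1.76), against 2.38 to 3.42 with EtOH (median 2.57).

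mt-Tp, the proline transfer RNA, had 2.19 to 4.17 CPM with Dex (median 3.28), against 5.94 to 12.4 CPM with EtOH (median 9.05). It was 1.85- to 3.66-fold lower, with the smallest adjusted p of any member, 3.05e-09 in noIPTG.EV (log2 -1.87 ± 0.17, edgeR). mt-Tm, for methionine, had 1.08 to 2.34 CPM with Dex (median 1.51), against 4.09 to 6.94 CPM with EtOH (median 5.37), and was 2.54- to 4.71-fold lower. The treatments did not overlap for either. mt-Ti, for isoleucine, had 22 to 72 counts with Dex and 61 to 165 with EtOH, which is 0.496 to 1.29 CPM against 1.83 to 4.81 CPM, and was 2.33- to 4.73-fold lower. mt-Ta, for alanine, had 13 to 31 counts with Dex against 34 to 56 with EtOH and was 2.41- to 3.77-fold lower. All 4 passed in each state, with adjusted p of at most 0.0049 (edgeR). The only one of these calls that 1 library could end was that of mt-Ti in IPTG.EV, with an adjusted p of 0.173 without replicate 1 of IPTG.EV.EtOH. Removing the length and GC trend ended the calls of mt-Ti in IPTG.EV (adjusted p = 0.198) and IPTG.C1 (0.0776).

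These 5 transfer RNAs are set against 9.22% of all tested genes that were lower in each of the 6 states. Counting libraries instead, 6 of the 10 tested transfer RNAs (these 5 and mt-Tn) had all 12 Dex libraries below all 12 EtOH libraries, against 8.62% of all tested genes. mt-Tn met the low-count filter only through its EtOH libraries, so its place among these 6 was partly set by that filter. None of the 13 messenger or 2 ribosomal RNAs did so, and no member had all Dex libraries above all EtOH libraries, against 9.47% of all tested genes.

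mt-Tn, for asparagine, had only 0 to 5 counts with Dex against 6 to 16 with EtOH and passed in every state except IPTG.C2, where it had 5 and 4 counts with Dex against 9 and 6 with EtOH. At such counts no fold is given. Only its EtOH libraries met the low-count filter, so these calls are not independent of that filter. Its calls in noIPTG.EV and IPTG.EV were lost without 1 library, with adjusted p up to 0.148 and 0.161, and that in noIPTG.EV also with the length and GC trend removed (0.079). mt-Tq, for glutamine, had 2.12 to 4.35 CPM with Dex (median 3.45), against 3.74 to 7.59 CPM with EtOH (median 4.98). It passed in IPTG.C1C2 (2.02-fold lower, adjusted p = 1.14e-05, edgeR), noIPTG.EV (1.79-fold), IPTG.C1 (1.64-fold) and IPTG.EV (1.37-fold, adjusted p = 0.0184). The IPTG.EV call was lost without replicate 1 of IPTG.EV.EtOH (0.159) or of IPTG.EV.Dex (0.218). With the length and GC trend removed, only the IPTG.C1C2 call of mt-Tq was left (adjusted p up to 0.45 in the other 3 states). mt-Tt, for threonine, had 24 to 52 counts with Dex against 34 to 58 with EtOH and passed in IPTG.C1 and IPTG.C1C2 at adjusted p of 0.0323 and 0.0344 (edgeR). Both mt-Tt calls were lost with any library of the state left out, with adjusted p up to 0.196 and 0.195. They were also lost with the length and GC trend removed, which brought the log2 changes to -0.38 (adjusted p = 0.521) and -0.45 (0.41), and the IPTG.C1C2 call was lost in DESeq2 (0.0524).

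The remaining 2 tested transfer RNAs passed in no state. mt-Tw, for tryptophan, had 6.30 to 12.2 CPM with Dex (median 8.67), against 7.53 to 11.1 CPM with EtOH (median 9.71), with log2 changes of -0.46 to 0.11. It held 37.6 to 51.0% of transfer RNA counts with Dex, against 16.5 to 22.4% with EtOH. Set against messenger RNA, however, there were 0.634 to 1.16 counts of mt-Tw per 1000 messenger counts with Dex and 0.573 to 0.893 with EtOH, which overlap. mt-Te, for glutamate, had 8 to 25 counts with Dex against 6 to 25 with EtOH. The 12 untested transfer RNAs together had 4 to 16 counts in a Dex library (median 10), against 11 to 26 in an EtOH library (median 19).

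**Figure D5:**
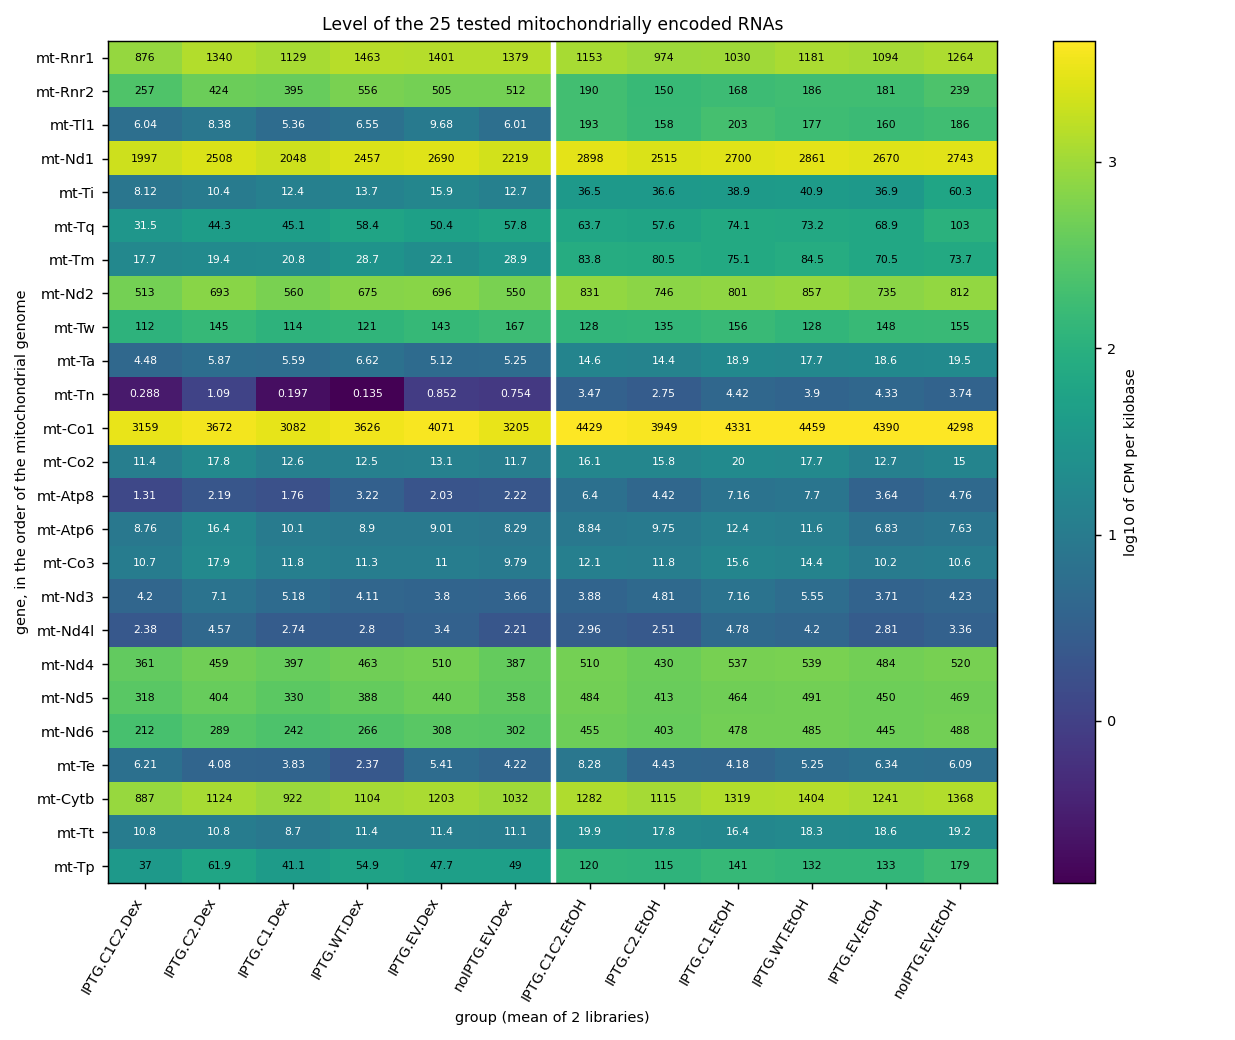
Mean CPM per kilobase of 2 libraries (number in each cell, colour on a log10 scale) for the 25 tested members in the order of the mitochondrial genome (y axis) and the 12 groups (x axis), Dex left of EtOH. mt-Tl1 is at 5.36 to 9.68 in the 6 Dex groups against 158 to 203 in the 6 EtOH groups, and the 6 messenger RNAs with chromosome 1 copies or next to them stay between 1.31 and 20.02.

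Short nuclear RNAs were counted beside the transfer RNAs. Of 178 tested nuclear genes of at most 100 bases, 8 to 18 fell and 7 to 14 rose in a state. Of 67 small non-coding nuclear RNAs chosen by name pattern, 3 to 7 fell and 3 to 7 rose. Among all genes 13.7 to 18.2% fell and 14.8 to 19.8% rose. In the first list more fell than rose in noIPTG.EV (18 and 7), IPTG.C1 (16 and 8) and IPTG.WT (10 and 8). Fewer fell than rose in IPTG.EV (8 and 14) and IPTG.C2 (8 and 12), and IPTG.C1C2 had 11 of each. The median log2 change of the first list was between -0.32 and 0.05 over the states. Small nuclear RNAs held 0.767 to 0.881% of counts with Dex, against 0.649 to 0.878% with EtOH. Other technical differences between the blocks were not measured by these files.

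Nuclear genes that serve the mitochondrial RNAs or encode respiratory subunits were counted in 11 lists. Of the 101 listed genes, 33 to 46 passed in a state, which is 32.7% in IPTG.WT to 45.5% in noIPTG.EV, against 28.5 and 38% of all genes in these states. In all 6 states 9.53% of all tested genes rose and 9.22% fell. Of 17 tested mitochondrial aminoacyl-tRNA synthetases, 4 to 7 rose and 0 to 1 fell in a state, and Lars2, Nars2, Pars2 and Vars2 rose in all 6. Lars2, the enzyme that charges the leucine transfer RNAs, had 221 to 1040 CPM with Dex (median 587), against 78.1 to 203 CPM with EtOH (median 106). The treatments did not overlap, and its log2 changes were 1.74 to 3.04 (adjusted p at most 0.0128, edgeR). Gm42418, linked to cytosolic ribosomal RNA, moved the same way, with log2 changes of 0.26 to 0.55, and its part in the counts of Lars2 was not tested. The log2 change of Lars2 had a standard error of 0.47 to 0.49 and was larger than those of Nars2 (0.29 to 0.69), Vars2 (0.27 to 0.46) and Pars2 (0.27 to 0.51).

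Of 12 genes of mitochondrial RNA processing, 3 to 4 rose and 2 to 4 fell in a state. Elac2, which cuts the 3′ ends of transfer RNAs, rose in all 6 states by 0.18 to 0.32 (log2), with Fastk and Tbrg4. Trmt10c, a subunit of mitochondrial RNase P, which cuts the 5′ ends, fell in all 6 by 0.25 to 0.51, with the poly(A) polymerase Mtpap (0.24 to 0.50). Of 7 genes of mitochondrial RNA stability and decay, 1 to 3 fell in a state and none rose, and the nuclease gene Pnpt1 fell in all 6 by 0.24 to 0.40. Of 10 transcription genes, Polrmt, the mitochondrial RNA polymerase, rose in all 6 (0.19 to 0.49), and Tfam, which packages and activates mitochondrial DNA, fell in all 6 (0.22 to 0.30).

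Of 8 nuclear regulators of mitochondrial content, 4 to 5 fell in a state, and Ppargc1a (-0.98 to -0.77), Ppargc1b (-0.68 to -0.49), Gabpa and Yy1 fell in all 6, while Pprc1 rose (0.22 to 0.41). Among nuclear-encoded respiratory subunits, those of complex IV rose in 3 to 4 of 10 cases per state and fell in 0 to 2, led by Cox7c (1.14 to 1.43). Complex I had 1 to 5 of 10 higher and 1 to 3 lower, complex III 0 to 3 of 7 higher and ATP synthase 1 to 3 of 8 higher and 0 to 2 lower, with Atp5g1 higher in all 6 (0.53 to 0.59). The genes of mitochondrial DNA replication had 1 to 2 of 8 higher and 0 to 2 lower. Counts of higher genes are to be read against the 14.8 to 19.8% of all genes that rose in a state, and counts of lower genes against the 13.7 to 18.2% that fell.

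Knockdown was compared as IPTG.EV against noIPTG.EV. With ethanol, 1 of the 25 members passed, against 13.4% of all genes. This was mt-Tq, with 5.16 and 4.62 CPM in IPTG.EV.EtOH against 7.59 and 7.06 CPM in noIPTG.EV.EtOH, a fall of 0.58 ± 0.14 on the log2 scale (adjusted p = 0.00588, edgeR). The call was lost without replicate 1 of noIPTG.EV.EtOH (adjusted p = 0.073), without replicate 2 of IPTG.EV.EtOH (0.0991) and with the length and GC trend removed (0.15). mt-Ti (log2 -0.69, adjusted p = 0.129) and mt-Tp (-0.43, adjusted p = 0.0664) did not pass. With dexamethasone, 0 of 25 passed in edgeR (background 16.9%), 0 had an unadjusted p below 0.05, and 0 passed in DESeq2. There mt-Tq had 3.21 and 3.95 CPM in IPTG.EV.Dex, against 4.31 and 3.90 CPM in noIPTG.EV.Dex, which overlap.

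The other members are given with their 95% intervals. With ethanol, the log2 difference of mt-Tl1 after knockdown was -0.20 (interval -0.92 to 0.52), of mt-Rnr1 -0.21 (-0.82 to 0.41), of mt-Rnr2 -0.40 (-1.14 to 0.34) and of mt-Nd6 -0.13 (-0.69 to 0.43). With dexamethasone, the differences were 0.69 (-0.86 to 2.24) for mt-Tl1, 0.02 (-0.59 to 0.64) for mt-Rnr1, -0.02 (-0.75 to 0.71) for mt-Rnr2 and 0.03 (-0.53 to 0.59) for mt-Nd6. The intervals of the 13 messenger RNAs reached from -1.29 to 0.73 with ethanol and from -1.16 to 1.46 with dexamethasone.

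Of the 101 nuclear genes in the lists, 8 passed in the same comparison with ethanol (7.92%, against 13.4% of all genes) and 7 with dexamethasone (6.93%, against 16.9%). With ethanol the processing genes Tbrg4 (-0.25) and Trmt10c (-0.27) fell, as did the regulator Pprc1 (-0.30). The decay gene Rexo2 rose (0.32) while Pnpt1 fell (-0.17), and Cox5a, Atp5d and Atp5o rose by 0.16 to 0.18 (log2). With dexamethasone Tbrg4 (-0.23) and Pprc1 (-0.36) again fell and Rexo2 (0.20) again rose, joined by Angel2 (0.24), and the synthetases Tars2 (-0.30) and Fars2 (-0.27) and the complex III subunit Uqcrfs1 (-0.14) fell. No gene of the transcription list passed in either.

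Add-back was compared as IPTG.WT against IPTG.EV, though the Nipbl counts do not show whether the construct was expressed. No member passed in edgeR or DESeq2 with ethanol (background 1.16%) or with dexamethasone (background 4.2%), and 1 in each had an unadjusted p below 0.05. These were mt-Atp8 with ethanol, at 75 and 50 counts in IPTG.WT.EtOH against 35 and 20 in IPTG.EV.EtOH (log2 1.07, adjusted p = 0.346), and mt-Te with dexamethasone, at 10 and 8 counts in IPTG.WT.Dex against 15 and 22 in IPTG.EV.Dex (-1.18, adjusted p = 0.191). mt-Tq had 5.30 and 5.08 CPM in IPTG.WT.EtOH, against 5.16 and 4.62 CPM in IPTG.EV.EtOH, a log2 difference of 0.08 (interval -0.21 to 0.38). The log2 difference of mt-Rnr2 was 0.04 (-0.70 to 0.78) with ethanol and 0.14 (-0.59 to 0.87) with dexamethasone. Of the nuclear lists no gene passed with ethanol. With dexamethasone the synthetase Nars2 rose (0.34), and Sdhb of complex II (-0.24) and the ATP synthase subunits Atp5d (-0.18) and Atp5o (-0.19) fell.

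Each mutant was compared with IPTG.WT over both treatments. In IPTG.C1 no member passed in edgeR or DESeq2 (background 9.66%) and 0 had an unadjusted p below 0.05. In IPTG.C2 1 passed (background 12.9%), and in IPTG.C1C2 1 (background 4.86%), in both cases mt-Tq, while 2 and 5 had an unadjusted p below 0.05. It had 2.12 and 2.35 CPM in IPTG.C1C2.Dex, against 3.94 and 4.35 CPM in IPTG.WT.Dex, and 4.52 and 4.52 CPM in IPTG.C1C2.EtOH, against 5.30 and 5.08 CPM in IPTG.WT.EtOH. Both pairs lay below their IPTG.WT pair, and the fall was 0.54 ± 0.10 on the log2 scale (adjusted p = 0.00217, edgeR). IPTG.C2 had 2.88 and 3.42 CPM with Dex and 3.74 and 4.44 CPM with EtOH, a fall of 0.37 ± 0.10 against IPTG.WT (adjusted p = 0.0173, edgeR). The IPTG.C2 call was lost without replicate 1 of IPTG.WT.EtOH, IPTG.C2.EtOH or IPTG.C2.Dex (adjusted p = 0.0651 to 0.0816), and both calls were lost with the length and GC trend removed (0.461 and 0.329). In IPTG.C1 the log2 difference of mt-Tq was -0.17 (interval -0.38 to 0.03).

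The other members gave wide intervals in the mutants. Against IPTG.WT, mt-Rnr2 differed by -0.54 (interval -1.06 to -0.02, adjusted p = 0.256, edgeR) in IPTG.C1C2, by -0.35 (-0.87 to 0.17) in IPTG.C2 and by -0.32 (-0.84 to 0.20) in IPTG.C1. mt-Tl1 differed by 0.02 (-0.90 to 0.93), 0.11 (-0.72 to 0.93) and -0.03 (-0.89 to 0.83) in the same order, and mt-Nd6 by -0.21 (-0.61 to 0.19), -0.08 (-0.47 to 0.32) and -0.08 (-0.48 to 0.32). mt-Rnr1 differed by -0.39 (-0.82 to 0.05), -0.20 (-0.64 to 0.23) and -0.29 (-0.72 to 0.15). Of the 101 nuclear genes in the lists, 6 rose and 1 fell in IPTG.C1, which is 6.93% against 9.66% of all genes. In IPTG.C2 16 rose and 0 fell, which is 15.8% against 12.9% of all genes, and in IPTG.C1C2 0 passed, against 4.86%. Fastkd2, Rexo2, Yars2 and Aars2 rose in both IPTG.C1 and IPTG.C2, by 0.15 to 0.20 (log2), as did Pprc1 (0.17 and 0.22), while the complex I subunit Ndufs1 fell in IPTG.C1 (-0.20). The other genes that rose in IPTG.C2 included 3 of 8 ATP synthase subunits (Atp5o, Atp5a1 and Atp5b), 2 of 10 of complex I, 2 of 7 of complex III and Sdhb of complex II, by 0.11 to 0.21. Whether IPTG.C1 and IPTG.C2 differ in these lists was not tested.

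The last comparison was between dexamethasone responses, where a shift shared by all libraries of a block cancels on the log2 scale. For IPTG.EV minus noIPTG.EV, 0 of 25 members passed in edgeR or DESeq2 (background 0.171%), and 1 (mt-Ti, log2 1.02) had an unadjusted p below 0.05. For IPTG.WT minus IPTG.EV, 0 passed in either tool (background 0.0118%) and 0 had an unadjusted p below 0.05. The difference for mt-Tl1 was 0.89 (interval -0.82 to 2.60) in the first and -0.72 (-2.38 to 0.94) in the second. For mt-Rnr2 it was 0.38 (-0.66 to 1.42) and 0.10 (-0.94 to 1.14), and for mt-Nd6 0.16 (-0.63 to 0.96) and -0.33 (-1.13 to 0.46).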

How the data were processed

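The deposited table holds raw counts per gene name, made by the authors for 24 libraries of total RNA. The tools named in the submitters' processing notes are bcl2fastq 2.20, cutadapt 1.18, STAR 2.7.0f and featureCounts of Subread 2.0.3, with mm10 as the genome build. The annotation release, the strand setting and the counting of reads with several alignments are not given in the sources used here. Per the labels' protocols, libraries were made with a stranded Illumina kit for total RNA that includes Ribo-Zero Plus depletion of ribosomal RNA.

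Groups follow the sample titles. Counts were tested with edgeR 4.0.16 (robust quasi-likelihood, TMM factors) in R 4.3.3, with 1 mean per group over all 24 libraries, 12 residual degrees of freedom and Benjamini-Hochberg adjustment over the 16934 genes that edgeR's filter kept; 38407 were removed. DESeq2 1.42.0, other scalings and filters, replicate blocks, fits on the compared libraries and single libraries left out were alternatives. CPM are counts over the TMM-scaled library total. Class shares are percent of all counts and got no test. Precision is that of 2 libraries a group. The standard error is the size of the log2 change divided by the square root of the test's F statistic. The 95% interval is built from that value, so both are approximate. The test was also run on simulated counts that held no library block, so that run says nothing about the blocks. Members called in a comparison, mt-Tl1, mt-Nd6, mt-Rnr1 and mt-Rnr2 were named with values, and others as ranges or in the plot of levels; of the nuclear lists up to 3 called genes per list and comparison, and those called in all 6 states, which were chosen after their values were seen. The members and gene lists were chosen with earlier results of these data known. Sequences, positions and lengths are from GENCODE vM21. Near-identical copies were found by aligning members to its transcripts.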

Additional observations from a re-analysis of the deposited data

How the results depend on the processing

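Of 55 fold changes called for single members, in 755 combinations with an alternative, the call was kept in 701, lost in 54 and reversed in 0. mt-Tl1, mt-Tm, mt-Ta and mt-Tp kept their dexamethasone calls in every alternative in which they were tested. mt-Ta was not tested under the strict filter. Of the 54 lost, 14 were of mt-Tq, 12 of mt-Tt, 9 of mt-Nd6, 7 of mt-Rnr2, 5 of mt-Tn, 4 of mt-Atp8 and 3 of mt-Ti. Depth limits the transfer RNAs, of which mt-Tn had 0 to 16 counts a library and mt-Tt 24 to 58.

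The number of members called moved by over 1.5 times as follows, and the cause was not tested except where fewer libraries or members enter. With no low-count filter it was 3 after knockdown with ethanol, 2 for IPTG.C2 against IPTG.WT and 3 for IPTG.C1C2 against IPTG.WT. A strict filter left 6 for Dex in IPTG.C1C2, where mt-Ta, mt-Tn, mt-Atp8 and mt-Tt were no longer tested. Fitting only the compared libraries gave 13 for Dex in noIPTG.EV, 19 in IPTG.C1, 2 after knockdown with ethanol, 2 for IPTG.WT against IPTG.EV with ethanol and 0 for IPTG.C2 against IPTG.WT. Removing the length and GC trend, added after the data had been seen, gave 7 for Dex in IPTG.C1. It gave 0 both after knockdown with ethanol and for IPTG.C2 against IPTG.WT. Members were not excluded from the genes on which that trend was fitted.

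With replicate number as a block, 2 members passed after knockdown with ethanol and 2 for IPTG.C1C2 against IPTG.WT, and with the block nested in treatment 2 passed after knockdown with ethanol; no other count moved past 1.5 times. Within each treatment, all replicate 1 libraries carry lower library numbers than all replicate 2 libraries. Deviations of same-numbered libraries correlated at -0.19 to 0.164 within a treatment (median 0.0401, 7 of 30 pairs of groups over 0.1). Between treatments they correlated at -0.102 to 0.235 (median 0.0356, 5 of 36 over 0.1). These values cannot show whether or not the replicate numbers pair the samples.

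With 1 library left out at a time, Dex counts were 7 to 9 in noIPTG.EV, 5 to 9 in IPTG.EV (5 without replicate 1 of IPTG.EV.EtOH), 7 to 10 in IPTG.WT, 8 to 10 in IPTG.C1, 6 to 11 in IPTG.C2 (11 without replicate 2 of IPTG.C2.Dex) and 8 to 9 in IPTG.C1C2. Knockdown gave 0 to 2 with ethanol and 0 with dexamethasone, IPTG.WT against IPTG.EV 0, IPTG.C1 against IPTG.WT 0 to 1, IPTG.C2 0 to 2 and IPTG.C1C2 1 to 2. The mean log2 ratio of Dex to EtOH class shares stayed at -0.41 to -0.31 for messenger, 0.34 to 0.47 for ribosomal and -1.39 to -1.29 for transfer RNAs. The ratios of IPTG.EV to noIPTG.EV were 0.09 to 0.30 (messenger), -0.20 to 0.13 (ribosomal) and -0.30 to -0.02 (transfer), and those of IPTG.WT to IPTG.EV -0.18 to 0.11, -0.14 to 0.28 and -0.12 to 0.16.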
